A study of Mus musculus with 32 samples.

Results

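Potassium channel genes were followed across eye muscle, limb muscle and brainstem of an albino and a pigmented mouse. The members are all symbols of the deposited count table that start with Kcn, go on with letters and end in digits. There are 92 of them among 24421 genes, and each had at least 1 read in some library. By the part of the symbol before its last number, 22 encode voltage-gated pore subunits (Kcna, Kcnb, Kcnc, Kcnd, Kcnq), 10 modifier subunits that join voltage-gated pores (Kcnf, Kcng, Kcns, Kcnv), 8 the EAG family (Kcnh), 8 calcium- or sodium-activated channels and relatives (Kcnma, Kcnn, Kcnt, Kcnu), 15 inward rectifiers (Kcnj), 14 tandem-pore leak channels (Kcnk) and 15 accessory proteins (Kcnab, Kcne, Kcnip, Kcnmb).

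One strain is B6(CG)Tyr(c-2J)/J, an albino line with a changed tyrosinase gene, and the study addresses its nystagmus (eyes that oscillate involuntarily); the other is pigmented C57BL/6. The sequenced tissues were the eye muscles (extraocular muscle, EOM), a leg muscle (tibialis anterior, TA) and brainstem samples labelled as oculomotor (CN3) or abducens (CN6) motor neurons, each with 4 libraries per strain and 32 in all. No group carried a transgene or treatment per the labels, which give neither age nor sex. The labels do not say that replicates came from separate animals, so p-values measure the spread between these samples.

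The labels and the markers disagreed for 8 of the 16 albino libraries, and this decides how the strains can be compared. Brain RNA filled 4 albino libraries with a muscle label (EOM 1, EOM 2, TA 1, TA 2), and muscle RNA filled 4 with a brainstem label (CN3 3, CN3 4, CN6 3, CN6 4). Albino libraries were therefore grouped by marker genes: those labelled EOM 3, EOM 4, CN3 3 and CN3 4 as eye muscle, TA 3, TA 4, CN6 3 and CN6 4 as limb muscle, CN3 1, CN3 2, EOM 1 and EOM 2 as CN3, and CN6 1, CN6 2, TA 1 and TA 2 as CN6. Myh13, the myosin of the fastest eye muscle fibres, ran from 3747 to 4987 CPM (counts scaled to library size) in the 8 eye muscle libraries and was at most 94.1 CPM in the 8 limb muscle libraries. The library labelled albino CN6 1 stood apart, with a summed level of 6 hindbrain Hox genes of 5.39 CPM against 26.2 to 51.5 CPM in the other 3 of its group and 56.2 to 75.6 CPM in C57BL/6 CN6. Counts of calls between strains in muscle and over the 4 tissues are also given from the 24 libraries whose kind matches the label. These hold 2 albino libraries per tissue. Single genes are given from them only in part, and the strain tests within CN3 and within CN6 are not.

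Library totals ran from 18544334 to 44254021 counts. Motor neuron markers also limit the brainstem samples as models of motor neurons. The summed level of Chat, Slc18a3, Slc5a7, Isl1 and Prph was 65.3 to 151 CPM in C57BL/6 CN6 and 4.23 to 7.05 CPM in C57BL/6 CN3, against 44.5 to 99.4 CPM in albino CN3. A list of 6 general neuron genes stood at 4826 to 6514 CPM in these C57BL/6 samples and a list of 5 astrocyte genes at 2742 to 3226 CPM, so the brainstem libraries held RNA of both neurons and glia. In tissue samples, fewer cells of a type and less RNA per cell cannot be told apart.

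Potassium channels let potassium leave or enter a cell and so set its resting voltage and end its action potentials. In skeletal muscle, inward rectifiers and ATP-sensitive channels stabilise the resting fibre and protect it in fatigue. In the brainstem, Kcna channels sit beside the nodes of myelinated axons, Kcnc channels allow fast firing, and Kcnj10 takes up potassium in astrocytes.

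The promoter windows of 3 members are shown first because the results turn on them: Kcna7, the voltage-gated channel gene found almost only in muscle, Kcnj2, the inward rectifier that was lower in the muscles of the albino mice, and Kcnj10, the leading member of the brainstem. Each window of 300 bases spans a start of transcription as RefSeq gives it on GRCm38.p6, read 5′ to 3′ on the + strand. Capitals mark the palindromic motifs CACGTG, bound by basic helix-loop-helix factors of the clock and Myc kind, and CAGCTG, bound by those of the myogenic kind. The windows lie at chr7:45405710-45406009 for Kcna7, chr11:111065914-111066213 for Kcnj2 and chr1:172340960-172341259 for Kcnj10. Positions of whole genes given further on come from GENCODE, whose first base of Kcna7 lies upstream of the Kcna7 window and so outside it.
Kcna7: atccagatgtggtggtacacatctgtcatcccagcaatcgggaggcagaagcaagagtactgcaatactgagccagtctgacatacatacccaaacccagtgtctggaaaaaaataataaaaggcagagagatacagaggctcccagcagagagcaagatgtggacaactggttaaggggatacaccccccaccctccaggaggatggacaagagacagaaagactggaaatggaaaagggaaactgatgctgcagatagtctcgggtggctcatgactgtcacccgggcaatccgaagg
Kcnj2: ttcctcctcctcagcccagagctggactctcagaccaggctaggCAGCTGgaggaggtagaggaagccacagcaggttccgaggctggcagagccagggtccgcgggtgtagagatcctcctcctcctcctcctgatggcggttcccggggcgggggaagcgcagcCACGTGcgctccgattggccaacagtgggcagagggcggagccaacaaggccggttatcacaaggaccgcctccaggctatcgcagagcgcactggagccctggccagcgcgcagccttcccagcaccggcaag
Kcnj10: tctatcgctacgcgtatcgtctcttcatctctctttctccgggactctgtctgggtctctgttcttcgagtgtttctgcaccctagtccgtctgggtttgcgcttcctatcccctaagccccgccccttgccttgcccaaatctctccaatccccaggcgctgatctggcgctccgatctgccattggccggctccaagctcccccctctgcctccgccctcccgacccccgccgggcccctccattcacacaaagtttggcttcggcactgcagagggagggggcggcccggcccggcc

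Neither motif was found in the windows of Kcna7 and Kcnj10, and the window of Kcnj2 held each of them 1 time. Kcna7 had 4 CG pairs and 50.3% G and C, Kcnj2 18 pairs and 66.7%, and Kcnj10 21 pairs and 63.7%, against a median of 7 pairs over 32851 RefSeq windows of this length. Windows were found for 67 of the 92 members, some with several starts, 92 windows in all. CACGTG stood in 7 of these (7.61%) and in 7.15% of all windows, and CAGCTG in 23 (25%) and in 16.3% of all windows. Each motif is its own reverse complement, so the counts cover both strands. The MEF2 motif of muscle genes stood in 1 member window (1.09%), that of Kcnj9, and in 0.557% of all windows. These are matches of letters and not measured binding sites.

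**Figure D1:**
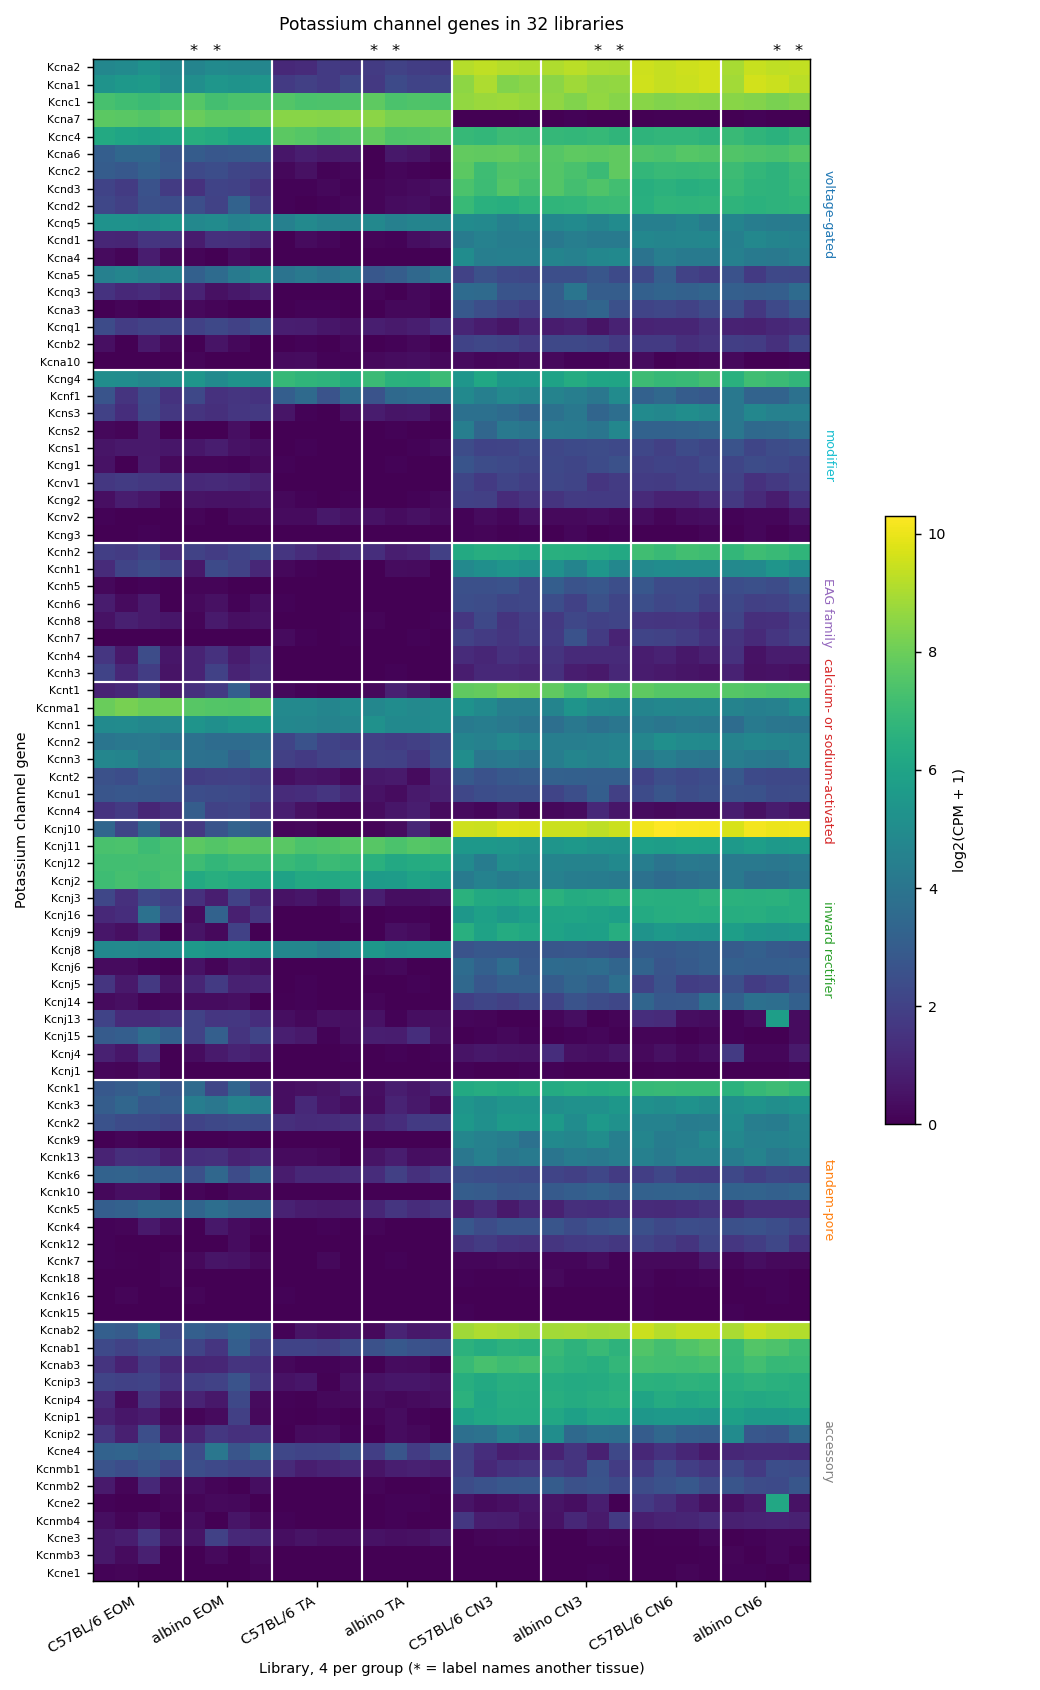
Levels of 88 of the 92 potassium channel genes (rows, by class) in the 32 libraries (columns, 4 per group), as log2(CPM + 1) from dark (0) to bright. Stars mark albino libraries whose label names another tissue. Kcna7 is bright in the 16 muscle columns and dark in the 16 brainstem columns, Kcnj10 the reverse, and Kcnma1 is brighter in eye muscle than anywhere else.

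Muscle and brainstem used different channel genes. Per kilobase of exon (RPKM), which allows genes to be compared, Kcna7 led in both C57BL/6 muscles, at 92.8 ± 5.74 RPKM in EOM and 163 ± 5.37 RPKM in TA (SD, n = 4). In EOM it was followed by the inward rectifiers Kcnj12 (53.5), Kcnj11 (41.9) and Kcnj2 (26.8 RPKM), and in TA by the fast voltage-gated channel Kcnc4 (51.9), then Kcnj11 (49.7) and Kcnj12 (43.6 RPKM). Kcnj10 led in CN3 with 148 ± 15.8 RPKM and in CN6 with 217 ± 13 RPKM. Among the next 5 in both brainstem samples were Kcna1 and Kcna2, pore subunits of axons, and Kcnab2, which binds Kcna channels. Of the 92 members, EOM expressed 31 at a mean of at least 1 RPKM, TA 16, CN3 59 and CN6 55.

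In the test of C57BL/6 muscle against C57BL/6 brainstem, 82 members were tested, of which 20 were higher in muscle and 59 lower, with a median log2 fold change of -4.38. Over all genes 88.8% passed this test, with a median of -0.127, so the share of members that passed (96.3%) is not far from the background. Fold changes here come from edgeR with TMM scaling, and a gene is said to be higher or lower only at an adjusted p under 0.05. Without TMM, from library totals alone, 17 were higher and 61 lower, and Kcnc4, Kcnmb1 and Kcnk6 changed sign to -0.01, -0.10 and -0.19. TMM moved the median of all genes in this comparison by 0.689. Kcng4, Kcnj4 and Kcnu1 were tested and not called.

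Among the 20 members higher in muscle were Kcna7 and 6 inward rectifiers. Kcna7 (chromosome 7, 45405653 to 45409763, mm10) had 207, 201, 186 and 216 CPM in C57BL/6 EOM and 358, 350, 342 and 370 CPM in TA, and at most 0.059 CPM in any C57BL/6 brainstem library. In all, 14 inward rectifiers were tested, of which 7 were lower in muscle. Kcnj2, which holds the resting potential of muscle fibres, differed by 3.36 ± 0.07 on the log2 scale (SE, adjusted p = 8.6e-18), Kcnj12, its close relative, by 3.32 ± 0.09, Kcnj11, the pore of the ATP-sensitive channel, by 2.50 ± 0.07, and Kcnj8, its counterpart in vessels, by 2.77 ± 0.09. Abcc9, the sulfonylurea receptor that pairs with these pores in vessels and muscle, was at 347 CPM in muscle and 21 CPM in brainstem, while Abcc8, the receptor of neurons and endocrine cells, was at 11.5 and 41.1 CPM. Kcnj10 fell by 9.82 ± 0.28 and the brain inward rectifier Kcnj9 by 10.1 ± 0.32.

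Of the 8 EAG family members 8 were lower in muscle, and of 10 tandem-pore channels 8 were lower. The tandem-pore gene Kcnk9, an acid-sensitive leak channel of neurons, had 20.2 CPM in CN3 and 23.1 CPM in CN6 on average. It had 0 counts in the 4 TA libraries. Taking 3 counts over the group as the floor, CN3 was at least 686-fold and CN6 at least 784-fold higher in CPM. Bounds of this kind are ratios of CPM without TMM scaling. Of 13 accessory genes tested 10 were lower, among them Kcnab2 (-7.70 ± 0.22) and Kcnab3 (-7.66 ± 0.14). Kcne1, the partner of Kcnq1 in heart and inner ear, was at or below 0.137 CPM in all 32 libraries and was not tested.

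More potassium channel genes reached a mean of 1 RPKM in C57BL/6 eye muscle than in limb muscle, 31 against 16. How many of all genes did so is not given here. RPKM rests on library totals, from which the median log2 fold change of all genes was itself 0.776 in EOM against TA. Between C57BL/6 EOM and TA, 59 members were tested, with 43 higher in EOM and 12 lower and a median log2 fold change of 2.29, which stays 2.29 with the 4 genes at 0 in TA (Kcnh3, Kcnh4, Kcnq3 and Kcnv1) held at their bound. Over all genes 77.2% passed and the median was 0.102. A gene low in TA could enter this test through its level in EOM. Here TMM moved the median of all genes by -0.674, and with library totals alone 49 members were higher and 7 lower, with Kcnj8, Kcnab1, Kcnn1 and Kcnj12 changing sign to values between 0.17 and 0.29. Of the 25 partner genes, which encode receptors, anchors and other excitability proteins that work with these channels, 23 were tested, 15 higher and 7 lower. Of 18 voltage-gated genes tested 11 were higher and 5 lower, of 5 modifiers 3 and 2, of 10 inward rectifiers 7 and 3, of 8 accessory genes 6 and 1, and of 4 EAG family genes 3 were higher. Kcna5, Kcne3, Kcnh2 and Kcnq5 were tested and not called. Summed over its 22 genes the voltage-gated class stood at 646 ± 15.7 CPM in EOM and 837 ± 28.5 CPM in TA (SD, n = 4).

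The clearest member of eye muscle was Kcnma1, the large-conductance calcium-activated BK channel (chromosome 14, 23289431 to 24014491, minus strand, mm10). It had 248, 291, 251 and 257 CPM in C57BL/6 EOM and 28.2, 27.7, 25 and 29.4 CPM in TA, with no overlap and a difference of 2.57 ± 0.07 (adjusted p = 3.1e-11). Its level in CN3 was 26.8 ± 8.13 CPM and in CN6 25.6 ± 1.10 CPM. Of the 8 calcium- or sodium-activated genes 7 were higher in EOM and only Kcnn1 was lower with TMM scaling (-0.50 ± 0.07, but 0.18 from library totals). The small-conductance channels Kcnn2 and Kcnn3 differed by 1.47 ± 0.17 and 2.18 ± 0.18, and Kcnmb1, the BK subunit of smooth muscle, by 1.41 ± 0.24. Lrrc52, an auxiliary protein of this channel family, was at 28.2 CPM in EOM and 0.928 CPM in TA (4.25 ± 0.17). Smooth muscle and pericyte markers summed to 2731 to 3094 CPM in EOM and 3378 to 3593 CPM in TA, and slow fibre markers to 1198 to 1643 and 13.2 to 27.4 CPM. Their part in these differences was not tested.

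Kcng4, Kcnc4 and Kcna7 were higher in limb muscle. Kcng4, a silent subunit, had 118, 108, 101 and 81.0 CPM in TA and 25.4 to 33.5 CPM in EOM (-2.41 ± 0.12). Kcnc4, which speeds repolarisation, had 172 to 206 CPM in TA and 60.5 to 75.5 CPM in EOM (-2.18 ± 0.08). Kcna7 differed by -1.48 ± 0.06. None of these 3 genes overlapped between the muscles. Fast fibre genes moved with them: the muscle fibre list, which includes Ckm, Acta1 and Myh4, summed to 112200 to 120600 CPM in TA and 35940 to 38970 CPM in EOM.

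The inward rectifiers split between the muscles. Kcnj2 had 137, 154, 138 and 156 CPM in EOM and 59.9, 76.7, 73.8 and 77.6 CPM in TA (0.35 ± 0.09, adjusted p = 0.0025). Kcnj11 had 131 to 165 CPM in EOM and 166 to 200 CPM in TA (-0.92 ± 0.09). For Kcnj12 the CPM were higher in EOM (143 to 151 against 109 to 128) and the TMM-scaled difference was -0.38 ± 0.06, so its direction depends on the scaling.

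Of the 43 members higher in EOM than TA, 31 (72.1%) were also lower in muscle than brainstem. Muscle there is the average of EOM and TA, so a level near 0 in TA alone can make a member lower. For 4 of the 31 the mean CPM of EOM was above the brainstem mean. Of all 6078 genes higher in EOM, 3405 (56%) were lower in muscle than brainstem too, and the comparisons share their muscle libraries. Nerve markers moved with the 31 members. In C57BL/6 eye muscle the 6 neuron genes summed to between 26.1 and 94.6 CPM, against 2.08 to 3.94 CPM in limb muscle, and Schwann cell and myelin markers to 881 to 1021 against 92.9 to 148 CPM. As a share of the mean of the CN3 and CN6 groups, the neuron list in C57BL/6 EOM was 0.998% (0.465 to 1.69% over the 4 libraries) and the myelin list 8.11% (7.44 to 8.62%). Of the 31 members, 5 had a mean share within or below the range of the neuron list, among them Kcnj10, Kcnt1, Kcnab3 and Kcnab2, at 0.621 to 1.38%. The other 26 lay above that range and 14 above the mean of the myelin list. The motor neuron list stood higher, at 16.7% (11 to 20.9%) of a brainstem mean of 55.3 CPM. That mean joins unlike groups, with 4.23 to 7.05 CPM in CN3 and 65.3 to 151 CPM in CN6. In EOM the list summed to 6.065 to 11.6 CPM, so its share depends on this averaging. In the albino libraries the share was 5.8% (1.07 to 8.81%). Of the 31 members, 18 lay below the C57BL/6 range of 11 to 20.9% and 6 within it (Kcnk2, Kcns3, Kcns1, Kcnq3, Kcnip2 and Kcnk3). The other 7 lay above it, 4 of them above the brainstem level itself. The part of nerve in each difference was not tested.

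The shares reached 221%, with a median of 7.07%. Kcna1, a channel of myelinated axons, stood at 7.07% of the brainstem level and Kcna2, its usual partner, at 4.56%. In C57BL/6, Kcna1 ran from 30.6 to 47.8 CPM in EOM and from 2.34 to 3.58 CPM in TA. Lgi1, a secreted protein that works with these channels on axons, had 34.0 CPM in EOM and 0.374 CPM in TA. At the top were Kcnn2 (58.6%), Kcnv1 (77.8%), Kcnt2 (109%), Kcnn3 (114%), Kcnh4 (168%) and Kcnh3 (221%). Kcnh3 was low, at 0.460 to 3.20 CPM in C57BL/6 EOM against a brainstem mean of 0.843 CPM. Its share ran from 54.5 to 379% over the libraries. That of Kcnh4 ran from 48.9 to 379% of a brainstem mean of 1.13 CPM. Kcnv1, a silent subunit, had 2.21, 2.48, 2.18 and 2.02 CPM in C57BL/6 EOM and 0 counts in TA. This makes EOM at least 75.6-fold higher in CPM, without TMM scaling. Kcnh4, of the ELK branch of the EAG family, had 2.09, 0.648, 4.27 and 0.551 CPM in C57BL/6 EOM. It had 0 counts in TA, at least 64.3-fold lower in CPM without TMM scaling. Kcnv1 varied little among libraries while Kcnh4 spread widely.

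**Figure D2:**
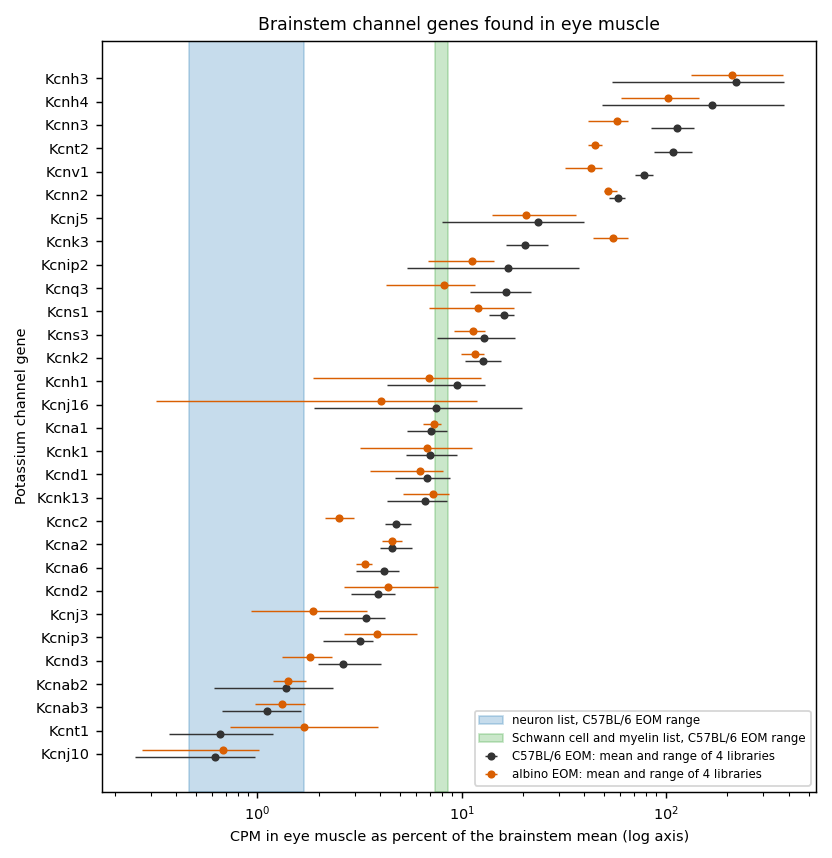
Of the members, 30 that were higher in C57BL/6 EOM than TA and lower in muscle than brainstem. The log axis gives the CPM in eye muscle as a percent of the brainstem mean of the same strain, as mean (point) and lowest to highest of 4 libraries (bar), and bands give the neuron and myelin lists in C57BL/6 EOM. Kcnj10 and Kcnt1 lie in the neuron band and Kcna1 lies near the myelin band. In C57BL/6 the means of Kcnt2, Kcnn3, Kcnh4 and Kcnh3 exceed 100%, with bars that reach below it.

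The tandem-pore channels were all low in limb muscle. Of the 14 genes 6 were tested and 6 were higher in EOM, where 77.2% of all genes were called in either direction. A gene low in TA could enter this test through its level in EOM. The shared direction is therefore in part set by the filter. Kcnk3, an acid-sensitive leak channel, had 6.06 to 9.67 CPM in eye muscle of C57BL/6, against 0.286 to 1.31 CPM in TA (2.92 ± 0.39), and Kcnk5, an alkaline-activated one, 7.46 to 10.5 and 0.694 to 0.961 CPM (2.87 ± 0.20). Kcnk1 differed by 3.03 ± 0.32 and the mechanosensitive Kcnk2 by 0.73 ± 0.21.

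The albino libraries repeated most of these differences between the muscles. In them 56 members were tested, with 35 higher in eye muscle, 11 lower and a median of 1.45, against 68.3% of all genes passing and a median of 0.0648. Of the 55 members called in C57BL/6, 45 were also called in the albino libraries, all 45 in the same direction (35 higher, 10 lower). They make up 45 of the 46 called there, the other being Kcnq5 (-0.54 ± 0.09, but 0.17 from library totals). The strains share no library in this comparison. With library totals alone 44 were higher and 5 lower, and Kcnj8, Kcnq5, Kcnn1 and Kcnj11 changed sign to between 0.12 and 0.32. From the libraries whose kind matches the label, 33 were higher and 10 lower.

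**Figure D3:**
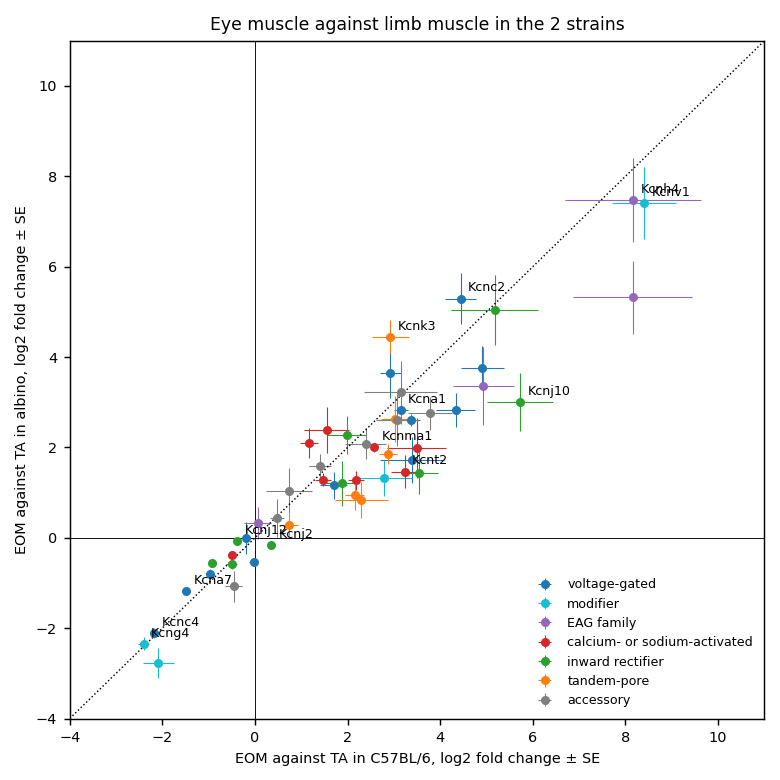
Log2 fold change of eye muscle against limb muscle with its SE for 52 members tested in both strains, C57BL/6 on the horizontal and albino on the vertical axis, coloured by class. The dotted line marks equal change. Kcng4, Kcnc4 and Kcna7 lie at the lower left and Kcnma1, Kcnk3 and Kcnc2 at the upper right, and Kcnj2 lies at 0.35 and -0.17. Kcnh3, Kcnh4 and Kcnv1 at the far right rest on 0 counts in C57BL/6 TA, so their place gives no size.

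The brainstem samples of C57BL/6 differed at about as many members in each direction. Between CN6 and CN3, 77 members were tested, 19 higher in CN6 and 21 lower, with a median of -0.0419. Over all genes 26.6% passed, against 51.9% of the members. Of 23 partner genes tested 6 were higher and 5 lower. Motor neuron markers differed between these groups, as given above, and so did position genes, so the part of motor neurons in any of these differences was not tested. The list of 6 general neuron genes was also higher in CN6, at 5893 to 6514 CPM against 4826 to 5111 CPM in CN3. These ranges did not overlap, and the part of neuron content was not tested.

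Kcna1 and Kcna2 were higher in CN6, while Kcnc2, a fast delayed rectifier, was lower (-0.49 ± 0.10). Kcna1 had 745, 676, 721 and 782 CPM in CN6 and 374, 530, 329 and 362 CPM in CN3 (0.92 ± 0.13, adjusted p = 0.00081), with no overlap. Kcnab1, which inactivates Kcna channels, rose by 1.01 ± 0.10 and Kcna2 by 0.37 ± 0.07. The modifiers Kcng4 and Kcns3 rose by 1.46 ± 0.16 and 1.36 ± 0.13, and the inward rectifier Kcnj14 by 1.49 ± 0.24, from 2.81 to 3.66 CPM in CN3 to 6.06 to 13 CPM in CN6. Kcnh2, the ERG channel, had 124 to 144 CPM in CN6 and 73.6 to 84.0 CPM in CN3 (0.83 ± 0.07). The glial inward rectifiers Kcnj10 and Kcnj16 were higher by 0.60 ± 0.07 and 0.76 ± 0.09, and astrocyte markers summed to 2809 to 3226 CPM in CN6 and 2742 to 2936 CPM in CN3, which overlap.

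Kcne2, an accessory subunit found in epithelia, had 2.41, 1.59, 0.824 and 0.378 CPM in CN6 and 0.227 to 0.531 CPM in CN3, which overlap (1.77 ± 0.52, adjusted p = 0.0281). The choroid plexus marker Ttr moved with it, at 175, 99.2, 44.4 and 19.4 CPM in the same CN6 libraries and 2.65 to 5.96 CPM in CN3, and its part was not tested. Without CN6 1 the difference of Kcne2 was 1.30 and was not called (adjusted p = 0.0864).

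Other members were higher in CN3. Kcnf1, a silent subunit, had 29.1, 20.6, 28.1 and 24.6 CPM in CN3 and 8.31, 10.2, 6.95 and 6.2 CPM in CN6 (-1.65 ± 0.15, adjusted p = 5.1e-05). The G-protein-gated inward rectifiers Kcnj5 and Kcnj9 fell by 1.16 ± 0.23 and 0.84 ± 0.11, Kcnk2 by 1.00 ± 0.10, Kcnip2, a calcium-binding partner of Kcnd channels, by 0.97 ± 0.17 and Kcnd3 by 0.76 ± 0.09. The G-protein-gated Kcnj3 had 71.0 to 95.8 CPM in CN3 and 88.0 to 101 CPM in CN6 and was not called.

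**Figure D4:**
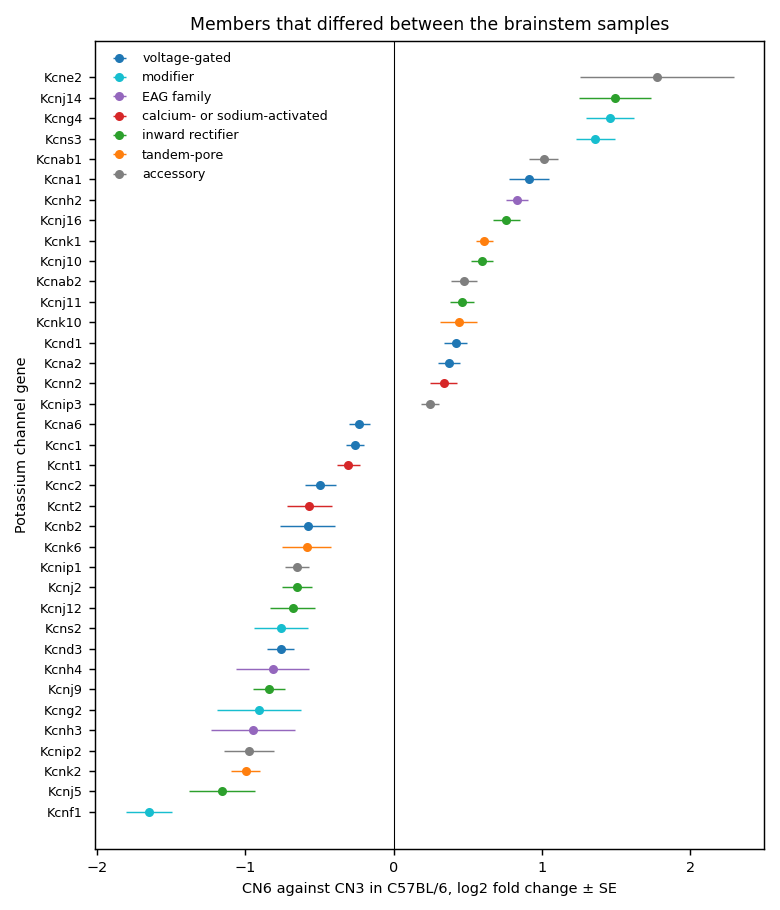
Of the members that differed between C57BL/6 CN6 and CN3, 37 are drawn, ordered by log2 fold change (point) with its SE (bar) and coloured by class. Kcne2, Kcnj14, Kcng4 and Kcns3 lie at the right and Kcnf1 at the left.

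In the brainstem no member passed the test between albino and C57BL/6 by edgeR. In CN3 0 of 77 tested members were called by edgeR (11 at an unadjusted p under 0.05) where 0.284% of all genes were, and in CN6 0 of 77 (14 at an unadjusted p under 0.05) where 0.12% were. The DESeq2 Wald test called 2 in each, Kcnab3 (-0.47) and Kcnab1 (0.32) in CN3 and Kcns2 (0.51) and Kcnd3 (0.29) in CN6. In CN3 the same test called 3.83% of all genes, and its share in CN6 is not given here. Kcnab3, a partner of Kcna channels, had 122 to 158 CPM in C57BL/6 CN3 and 86.4 to 114 CPM in albino CN3, and its edgeR adjusted p was 0.0968. Kcnj10 had 714 to 890 CPM in C57BL/6 and 617 to 722 CPM in albino CN3, which overlap and were not called. The median size of the log2 difference over members was 0.12 in CN3 and 0.154 in CN6.

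In eye muscle the strains differed at 16 of 65 tested members, 6 higher and 10 lower in the albino libraries. Of all genes 38.9% passed this test, so the share of members (24.6%) lay below the background. From the libraries whose kind matches the label, 6 were higher and 10 lower too, and 15 of the 16 were the same genes, the exception being Kcnn4 (adjusted p = 0.239). With offsets for GC content and exon length 6 members were called in place of 16, and 20% of all genes passed in place of 38.9%. Of 25 partner genes tested 3 were higher and 10 lower, among them Lgi1 (-0.64 ± 0.07). Fibre markers moved too: in eye muscle the muscle fibre list summed to 41890 to 45300 CPM in albino and 35940 to 38970 CPM in C57BL/6, and the eye muscle fibre list (Myh13 and Myh15) to 4711 to 5567 and 6021 to 7030 CPM. Macrophage markers summed to 570.2 to 673 CPM in albino and 461 to 569 CPM in C57BL/6, and Schwann cell and myelin markers to 821 to 866 and 881 to 1021 CPM. None of these 4 lists overlapped between the strains, and their part in the differences of members was not tested.

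Kcnj2 (chromosome 11, 111066164 to 111076821, mm10), whose window holds both motifs shown above, was lower in albino eye muscle. It had 137, 154, 138 and 156 CPM in C57BL/6 EOM, 77.4 and 76.2 CPM in the eye muscle libraries of albino mice that carry the labels EOM 3 and 4, and 76.0 and 86.0 CPM in those that carry CN3 3 and 4. The groups did not overlap, and the difference was -0.89 ± 0.08 (adjusted p = 6.6e-05). It was -0.91 from libraries that match their label and -0.55 with the offsets, both called. In limb muscle Kcnj2 had 59.9 to 77.6 CPM in C57BL/6 and 50.1 to 61.9 CPM in the albino libraries, a small overlap, with a difference of -0.40 ± 0.09 (adjusted p = 0.0058) that was not called with the offsets (-0.19, adjusted p = 0.159).

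Kcnk3 was higher in albino eye muscle, with 23.6 CPM in the albino library labelled EOM 3, 20.6 in EOM 4, 19.6 in CN3 3 and 15.9 CPM in CN3 4, against 7.33, 9.67, 6.06 and 6.62 CPM in C57BL/6. The difference was 1.43 ± 0.18 (adjusted p = 0.00031), and 1.18 with the offsets. In brainstem Kcnk3 was at 32.2 to 43.3 CPM in both strains. Of its exons, 5.76% overlap Gm9899 on the opposite strand, and the strand setting of the counting is not given in the sources used here.

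Of the 8 calcium- or sodium-activated genes, 7 differed in eye muscle, in both directions. Kcnma1 had 181, 200, 199 and 186 CPM in the albino libraries labelled EOM 3, EOM 4, CN3 3 and CN3 4, all below the 248 to 291 CPM of C57BL/6 (-0.45 ± 0.08, adjusted p = 0.0021). With the offsets its difference was 0.05 and not called, so its direction depends on that correction. Of its exon bases, 5.98% overlap the gene 4930519K11Rik on the opposite strand. Kcnn2 and Kcnn3 were lower by -0.38 ± 0.10 and -0.82 ± 0.19, the sodium-activated Kcnt2 by -0.99 ± 0.18 and the sperm channel gene Kcnu1 by -0.51 ± 0.16. Kcnn1 was higher by 0.45 ± 0.10 and Kcnn4, an intermediate-conductance channel of blood cells and endothelium, by 1.18 ± 0.40. Kcnn4 rested on few reads, at 1.18 to 2.38 CPM in C57BL/6 and 2.02 to 7.26 CPM in the albino libraries, which overlap.

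Kcnj8 was higher in both albino muscles and Kcnj11 in eye muscle. Kcnj8 had 35.1 to 47.3 CPM in albino and 25.8 to 30.8 CPM in C57BL/6 eye muscle (0.53 ± 0.11), and 33.7 to 42.4 CPM in albino and 19.6 to 29.4 CPM in C57BL/6 limb muscle (0.59 ± 0.10, adjusted p = 0.00077). Neither muscle showed overlap. Its receptor Abcc9 went the other way, with 214 against 327 CPM in eye muscle (-0.61 ± 0.09) and 254 against 366 CPM in limb muscle (-0.52 ± 0.07). Kcnj11 was higher in albino eye muscle, at 188 to 210 CPM against 131 to 165 CPM (0.39 ± 0.10), and Abcc8 too, at 32.1 against 21.4 CPM (0.59 ± 0.16). Endothelial markers summed to 437 to 506 CPM in albino and 379 to 457 CPM in C57BL/6 eye muscle and to 275 to 299 and 205 to 250 CPM in limb muscle. Smooth muscle and pericyte markers overlapped in eye muscle (2809 to 3094 and 2731 to 3094 CPM) and were lower in albino limb muscle, at 2720 to 3193 against 3378 to 3593 CPM. The part of either list was not tested. With the offsets Kcnj8 kept its call in limb muscle (0.41) and lost it in eye muscle (0.30, adjusted p = 0.0963), and Kcnj11 lost it (0.16, adjusted p = 0.318).

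Among the remaining eye muscle genes Kcnc2, a fast delayed rectifier, had 3.13 to 4.36 CPM in albino and 6.10 to 8.23 CPM in C57BL/6 (-0.90 ± 0.16), and Kcnv1 0.868 to 1.31 and 2.02 to 2.48 CPM (-0.93 ± 0.24). Kcnq5 was lower (-0.47 ± 0.10). Kcnj15, at 1.91 to 7.64 CPM against 6.8 to 11.7 CPM, overlapped (-1.10 ± 0.36, adjusted p = 0.035). Leaving out 1 library ended the call of Kcnj15, Kcnn4 and Kcnu1 in 6 of 8 cases each. The neuron list overlapped between the strains and stood at 30.5 to 129 CPM in albino and 26.1 to 94.6 CPM in C57BL/6 eye muscle, highest in the library labelled albino EOM 3 and in C57BL/6 EOM 3. Without these 2 libraries 12 members were called, among them Kcnj2 (-0.92) and Kcnk3 (1.25). The share of all genes that passed fell too, from 38.9% to 27.2%.

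**Figure D5:**
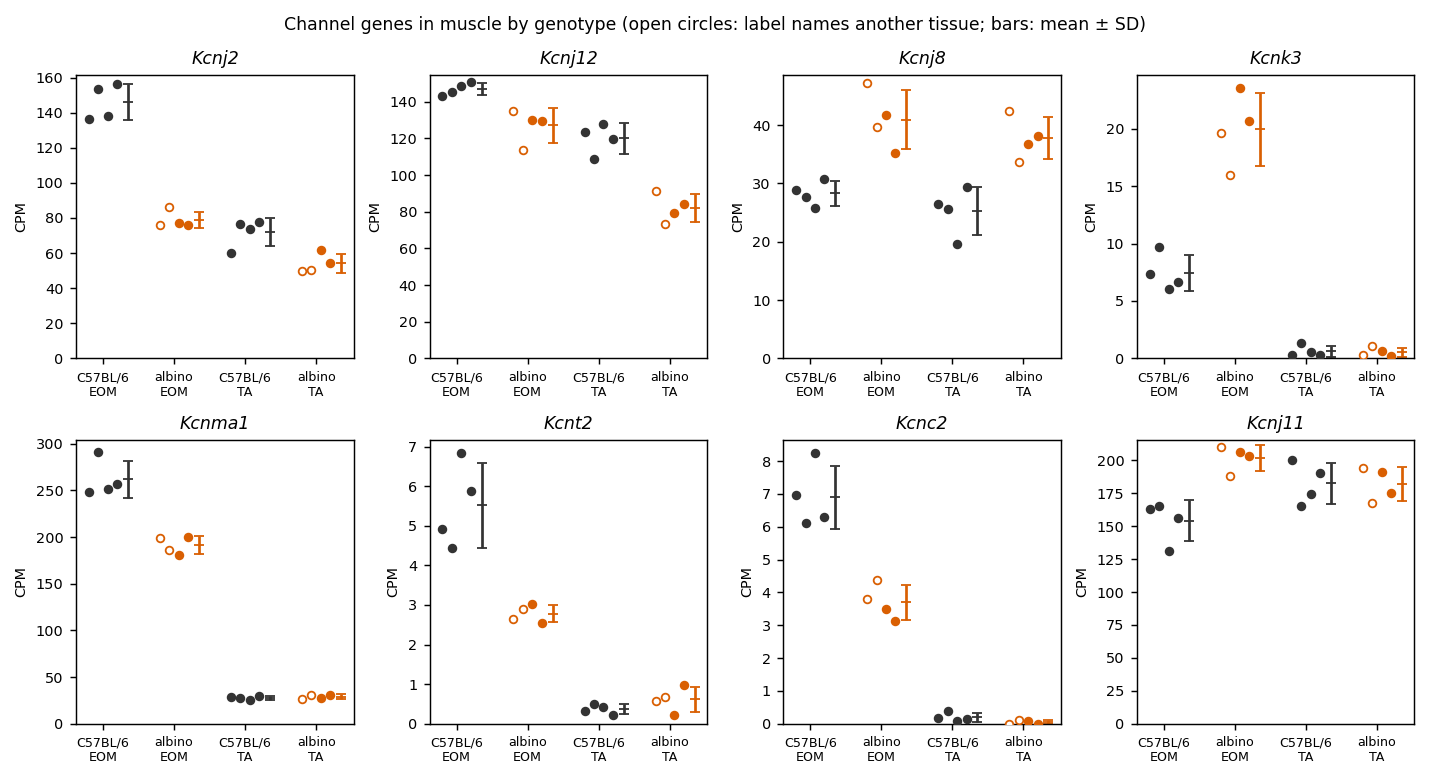
CPM of 8 members in each muscle library, C57BL/6 in black and albino in orange, with the mean and SD of 4 libraries at the right of each group. Open circles are libraries whose label names a brainstem sample. Kcnj2 of albino eye muscle sits between 76.0 and 86.0 CPM, below all C57BL/6 eye muscle libraries, and Kcnk3 sits between 15.9 and 23.6 CPM, above all of them.

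In limb muscle 9 of 38 tested members differed between the strains, 5 higher and 4 lower in the albino libraries, where 33.6% of all genes passed and 23.7% of the members did. Kcnj12 (chromosome 11, 61022564 to 61071131, mm10) had 79.5 and 84.3 CPM in the libraries labelled albino TA 3 and 4, 91.6 and 73.5 CPM in those labelled albino CN6 3 and 4, and 124, 109, 128 and 120 CPM in C57BL/6. The groups did not overlap (-0.54 ± 0.07, adjusted p = 0.00019). It was -0.58 from libraries that match their label and -0.76 with the offsets. Kcnk5 had 1.16 to 2.02 CPM against 0.694 to 0.961 CPM (1.11 ± 0.28), Kcnab1 4.61 to 6.06 against 2.90 to 4.12 CPM (0.64 ± 0.17), and Kcnk6, a poorly characterised leak channel, 1.48 to 2.90 against 0.721 to 1.36 CPM (0.91 ± 0.30). Kcna5, a channel of vessels and heart, had 6.01 to 14.4 against 14.2 to 17.5 CPM, a small overlap (-0.72 ± 0.20), and Kcnu1 0.252 to 0.850 against 1.29 to 2.04 CPM (-1.47 ± 0.35). Kcnn1 was higher by 0.32 ± 0.08.

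From the libraries that match their label 6 members were called in limb muscle, and Kcnab1, Kcnk6, Kcnn1 and Kcna5 lost the call (adjusted p from 0.0508 to 0.0835). Kcna7 gained a call there (-0.27, edgeR adjusted p = 0.00423), and 31% of all genes passed. Kcna7 was also called when only the library labelled albino CN6 3 was left out (-0.23). Leaving out 1 library ended the call of Kcnk6 in 5 of 8 cases. Macrophage markers stood at 125 to 156 CPM in albino and 31.2 to 37.6 CPM in C57BL/6 limb muscle with no overlap, and their part in these values was not tested. Of the 25 partner genes 21 were tested, 2 higher and 3 lower.

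Whether the strain difference itself differed between eye and limb muscle was tested with an interaction term. It was called for 9 of 65 tested members (13.8%), 3 above and 6 below 0, where 13% of all genes were. Kcnma1 gave -0.50 ± 0.12 (adjusted p = 0.014) and Kcnj2 -0.45 ± 0.13 (adjusted p = 0.030). Kcnj2 was lower in both albino muscles and more so in the eye muscle, while Kcnma1 was lower in eye muscle and was not called in limb muscle, with means of 29.1 CPM in albino and 27.6 CPM in C57BL/6 (0.10 ± 0.09, adjusted p = 0.422). Kcnk5 gave -0.94 ± 0.28, Kcnt2 -1.69 ± 0.47 and Kcnq5 -0.44 ± 0.14. Kcnj11 (0.43 ± 0.12), Kcnj12 (0.38 ± 0.11) and Kcna7 (0.38 ± 0.12) lay above 0. Kcna7 had 212 to 250 CPM in albino and 186 to 216 CPM in C57BL/6 eye muscle and 296 to 368 and 342 to 370 CPM in limb muscle, both overlapping. Kcnq3 was also called, but it had 0 counts in C57BL/6 TA and at most 0.151 CPM in albino TA, so no fold is given.

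The number of interaction calls moved with the settings. The share of all genes called under each setting is not given here, so these counts do not set members apart from other genes. With the offsets 2 members were called and without the eye muscle library of each strain with the most neuron RNA 4 were called, against 14 by the DESeq2 Wald test. From the libraries that match their label 7 were called, 6 of them among the 9. Kcnj11, Kcnq5 and Kcnt2 lost the call there (edgeR adjusted p = 0.095, 0.104 and 0.127). Leaving out 1 library left between 3 (without that labelled albino CN6 4 or albino EOM 4) and 11 (without that labelled albino CN3 4). It ended the call of Kcnma1 in none of 16 fits, of Kcnj2 in 7, of Kcnj12 and Kcnk5 in 10 and of Kcna7 and Kcnq5 in 13, and with the offsets Kcnma1 gave -0.17 and was not called.

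Over the 4 tissues together, 13 of 83 tested members differed between the strains, 7 higher and 6 lower in the albino libraries, where 31% of all genes did and 15.7% of the members. Kcnj2 was lower on average (-0.28 ± 0.05, adjusted p = 9.2e-05), as was Kcnj12 (-0.20 ± 0.06), and Kcnj8 was higher (0.26 ± 0.06). Kcnj2 had 18 to 21.9 CPM in albino and 18.1 to 22.8 CPM in C57BL/6 CN3, and 12.4 to 16.7 and 11.2 to 13.7 CPM in CN6, so the groups overlapped in both brainstem samples. Kcnn4, Kcnj6, Kcnt1, Kcnk5 and Kcnk13 were higher and lost the call in the libraries that match their label, where 7 remained called, all 7 among the 13. These averages share their libraries with the tests of single tissues.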

How the data were processed

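The authors deposited 1 table of raw counts per gene for 32 RNA-seq libraries. Per the submitters' processing notes, Trimmomatic 0.33, FastQC, HISAT2 2.1.0, featureCounts and edgeR were used with the mm10 build, while the annotation, strand setting and filters are not given in the sources used here. The kits were for fibrous or lipid tissue, per the labels' protocols. Of the table's rows, 27 had date-like names and were left out (at most 0.309% of a library).

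Counts were tested with edgeR 4.0.16 (R 4.3.3, filterByExpr, TMM, quasi-likelihood test, 2-sided) over all genes, with Benjamini-Hochberg adjustment and a threshold of 0.05, and SE is the log2 fold change divided by the square root of F. Each fit held only the libraries of its comparison. CPM is relative to the library total and RPKM uses exon lengths of GENCODE for mm10, which held 95.6% of the table's genes and all 92 members. Totals of 18544334 to 44254021 counts limit low genes, with a floor of 3 counts, for counting error only. Alternatives were DESeq2 1.42.0, its size factors in edgeR, other filters, a replicate block, offsets for GC content and exon length, other groupings of the albino libraries, leaving out 1 library and, chosen after seeing the data, library totals without TMM and leaving out the eye muscle library with the highest neuron list in each strain.

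Members with values are up to 8 per direction and comparison with the largest called change and a mean of at least 1 CPM, the 6 with the highest mean RPKM in each C57BL/6 tissue, and a list of muscle, vessel, glia and neuron channels. Other named members were chosen after their values were seen. A few members enter the counts but are not reported here one by one. The members, lists and grouping were chosen with earlier results of these data known. Of the members, 28 share exon bases with another gene, 26 of them on the opposite strand, so reads could be exchanged between them.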

Additional observations from a re-analysis of the deposited data

Results flagged for a closer look

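In groups of 4 libraries, 20 of 346 sets of values held 1 library far from the other 3, and chance gives about 1 in 20. In C57BL/6, CN3 1 had 31.1 CPM of Kcna4 (others 19.9 to 21.1), CN3 2 had 68.9 CPM of Kcng4 (41.3 to 43.8) and 33.6 CPM of Kcnk3 (40.2 to 40.6). In CN6, library 4 had 101 CPM of Kcnj3 (88 to 89.3), library 2 had 17.6 CPM of Kcnk13 (21.3 to 21.9) and library 1 had 211 CPM of Kcnt1 (192 to 193).

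Among albino muscle libraries, the library labelled CN6 3 had 368 CPM of Kcna7 (others of limb muscle 296 to 303) and 5.16 CPM of Kcnf1 (10.5 to 12). The library labelled EOM 3 had 8.79 CPM of Kcnn3 (12.8 to 13.7). The library labelled CN3 3 had 3.7 CPM of Kcnf1 (1.78 to 2.04). The library labelled CN3 4 had 86 CPM of Kcnj2 (76 to 77.4), 2.39 CPM of Kcnj5 (0.934 to 1.11) and 12.3 CPM of Kcnk5 (8.97 to 9.3).

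Among albino brainstem libraries, the library labelled TA 1 had 54.2 CPM of Kcnj13 (0.0653 to 0.273) and the library labelled EOM 1 had 617 CPM of Kcnj10 (710 to 722). CN3 1 had 1.94 CPM of Kcng2 (2.38 to 2.42) and 1.91 CPM of Kcnh4 (1.31 to 1.37), and CN6 2 had 146 CPM of Kcnab3 (119 to 123). CN6 1, whose hindbrain Hox sum also stood apart, had 1.11 CPM of Kcnk5 (1.59 to 1.64) and 6.31 CPM of Kcnt2 (3.65 to 3.93).

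The interaction term was called for Kcna7 (0.38), Kcnj11 (0.43), Kcnj12 (0.38), Kcnj2 (-0.45), Kcnk5 (-0.94), Kcnma1 (-0.50), Kcnq5 (-0.44) and Kcnt2 (-1.69). It asks whether the strain difference differed between eye and limb muscle, and 13.8% of tested members and 13% of all genes were called. Kcnj11, Kcnq5 and Kcnt2 lost the call in the libraries that match their label. For Kcnq3 the fitted value of -5.33 rests on libraries at 0 and is no measure of size.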

How the results depend on the processing

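Counts of called members kept within 1.5 times of those reported under other size factors and filters in each of the 10 comparisons. In albino against C57BL/6 eye muscle the 16 became 6 with offsets for GC content and exon length and 7 with a replicate block. The share of all genes that passed fell there too, from 38.9% to 20% with the offsets and 20.9% with the block. With the DESeq2 Wald test 2 members were called in CN3 and 2 in CN6, and in CN3 it called 3.83% of all genes. The 9 interaction calls became 14 with the DESeq2 Wald test, 2 with the offsets and 4 without the eye muscle libraries highest in neuron markers. Over the 4 tissues the 13 became 7 in the libraries that match their label. The shares of all genes under these settings, for the interaction and over the 4 tissues, are not given here. With all libraries as labelled, 0 members were called between albino eye and limb muscle, between the strains in EOM, between the strains in TA and for the interaction; those groups mix brain and muscle by construction. Other causes were not tested. Depth limits most the members with few reads, of which 33 were not tested between EOM and TA in C57BL/6.

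Leaving out each library in turn gave 55 to 59 calls for EOM against TA in C57BL/6, 46 to 50 in albino, 29 to 41 for CN6 against CN3, 79 to 80 for muscle against brainstem, 13 to 17 between strains in EOM, 8 to 10 in TA, 0 to 1 in CN3, 0 to 0 in CN6, 3 to 11 for the interaction and 10 to 15 over the 4 tissues. Over the same fits the share of all genes called ran from 17.6% to 29.3% for CN6 against CN3, where it was 26.6% with every library. Between the strains it ran from 30.9% to 39.9% in EOM and from 26.8% to 34% in TA. In the strain test of CN3 the 1 call was Kcnab3 without C57BL/6 CN3 1 (-0.53) or Kcng4 without C57BL/6 CN3 2 (0.69).

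Library totals without TMM turned, for EOM against TA in C57BL/6, Kcnj8 to 0.17, Kcnab1 to 0.21, Kcnn1 to 0.18 and Kcnj12 to 0.29. In albino they turned Kcnj8 to 0.12, Kcnq5 to 0.17, Kcnn1 to 0.32 and Kcnj11 to 0.15, and for muscle against brainstem Kcnc4 to -0.015, Kcnmb1 to -0.10 and Kcnk6 to -0.19. The offsets turned, for muscle against brainstem, Kcnc1 to 0.75 and Kcnn3 to 0.27, and Kcnma1 between the strains in EOM to 0.047. With all libraries as labelled, EOM against TA in albino gave -0.64 for Kcnj10, -0.29 for Kcnd1, -0.25 for Kcnab3, -0.73 for Kcns3, -0.015 for Kcnip3, -0.25 for Kcna2, -0.28 for Kcnab2, -0.47 for Kcnk1 and -0.56 for Kcna1. The strains in EOM then gave -0.012 for Kcnn4, -0.38 for Kcnj8, -0.055 for Kcnn1, -0.34 for Kcnj11, 3.44 for Kcnc2 and 0.54 for Lgi1, and in TA -0.33 for Kcnj8, -0.41 for Kcnn1 and 0.012 for Kcnu1. Over the 4 tissues they gave 2.14 for Kcnc2, 1.82 for Kcna6, 0.29 for Kcnj2, 0.50 for Kcnj12 and 0.94 for Abcc9.

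Libraries with the same replicate number correlated at -0.175 to 0.287 and were not treated as pairs. The fit with the replicate number as a block changed the count by over 1.5 times only between the strains in EOM, where it was 7.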

Other observations

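The library labelled albino TA 1, grouped with albino CN6, carried RNA of genes known from the choroid plexus, the secretory epithelium of the brain ventricles. Kcnj13, an inward rectifier of such epithelia, had 54.2 CPM there and at most 1.54 CPM in the other brainstem libraries (eye muscle reached 3.15 CPM, in C57BL/6 EOM 1), and Kcne2, an accessory subunit found there too, 71.5 CPM and at most 2.41 CPM in the others. The markers Ttr (7722 CPM, others at most 175), Folr1 (50.3 and 2.07), Kl (305 and 7.06) and Clic6 (155 and 9.43) were also highest there among the brainstem libraries; this list was chosen after the values were seen. In the strain test of CN6, Kcne2 was not called (edgeR adjusted p = 0.358) and Kcnj13 was not tested. Of the exon bases of Kcnj13, 49.1% overlap Gigyf2.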
